A study of Mus musculus with 16 samples.

Results

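The IGF and insulin signalling genes described here were 10 mouse genes, from a ligand to the inhibitors of the growth kinase at the end of the pathway: Igf1, Igfbp4, Igfbp5, Igf1r, Insr, Irs1, Irs2, Slc2a4, Ddit4 and Ddit4l. They were found through the transcript accession that the scanner files give for each probe, which matched them to 16 of the 55588 probes used, and all 10 were among the 21777 genes tested. Igf1 had 4 probes, Insr 3 and Irs1 2, and each of the other genes had 1.

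Insulin and insulin-like growth factor 1 bind related receptor tyrosine kinases on the muscle fibre, which phosphorylate the insulin receptor substrates IRS1 and IRS2. These adaptors recruit PI3-kinase, and through AKT the signal moves the glucose transporter GLUT4 to the fibre surface and turns on mTORC1, the kinase complex that drives protein synthesis. Binding proteins hold IGF outside the cell, and the products of Ddit4 and Ddit4l (REDD1 and REDD2) restrain mTORC1.

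The study profiled RNA of whole gastrocnemius, the large calf muscle, from untreated female C57Bl/6J mice at 3, 15, 24 and 29 months of age, with 4 samples at each age and 1 single-colour Agilent array per sample. All 16 samples shared strain, sex and muscle, and no treatment or genetic change was applied. The labels do not state that each sample is another animal, and the p-values cover only sample-to-sample spread, which may be technical. Slide 1 carried the 3 and 15 month arrays and slide 2 the 24 and 29 month arrays. Array row 2 held the 3 and 29 month arrays and row 1 the 15 and 24 month arrays. Comparisons across slides, such as 29 against 3 months, therefore cannot tell age from slide, and those within a slide cannot tell age from array row. The steps 15 against 3 and 29 against 24 months ran between the rows in opposite directions. Their difference therefore cannot tell age from array row either.

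Between 48.0% and 60.9% of the noncontrol spots of an array were well above background and 0 were saturated. All 8 muscle fibre markers were measured, and their mean deviation stayed between -0.33 and 0.26 on the log2 scale over the 16 arrays. Fibroblast markers, 10 of 10 measured, had scores (mean log2 deviation from each gene's mean) of -1.48 to 0.49 at 29 months, and of 0.25 to 0.84 at 3 months. At 24 months their scores ran from -1.88 to 0.16. Their summed level was 6.50 to 7.76 at 29 months and 7.67 to 8.26 at 3 months, and 3 of the 10 fell in that comparison. Endothelial scores (7 of 7 markers) were -0.59 to 0.18 at 29 months and 0.27 to 0.49 at 3 months, and tendon scores (4 of 5 markers) were -0.69 to -0.39 at 29 months and 0.53 to 1.10 at 3 months. The summed levels of both lists overlapped, at 5.63 to 6.10 (29 months) and 5.71 to 6.27 (3 months) for endothelium and at 2.61 to 3.05 (29 months) and 2.64 to 3.01 (3 months) for tendon. Smooth muscle and pericyte markers, 6 of 6 measured, had scores of -0.56 to -0.06 at 29 months and 0.05 to 0.69 at 3 months and summed levels of 4.71 to 5.15 at 29 months and 5.22 to 5.82 at 3 months, and Pdgfrb and Rgs5 fell by 0.96 and 1.11. The first 29 month array had raised B and plasma cell markers (score 2.90, 4 of 6 measured) and T and NK cell markers (score 2.18, 6 of 9 measured). Replicate 4 of 24 months had a B and plasma cell score of 2.32 and the highest adipocyte score of the series, 2.99 (6 of 7 measured). Replicates 2 and 4 of 24 months and 1 and 3 of 29 months agreed least with their own groups, with estimated array weights of 0.26 to 0.51 against 0.99 to 2.07 for the other arrays. In whole muscle, fewer cells of a type and less RNA per cell cannot be told apart.

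At 29 months the inhibitor Ddit4 stood 8.93-fold above its 3 month level, the binding protein Igfbp5 stood 3.01-fold below and the adaptor Irs1 2.06-fold below. Irs2, the second adaptor, was 1.60-fold above and the receptor gene Insr 1.29-fold above. These 5 of the 10 genes passed at a Benjamini-Hochberg adjusted p under 0.05, 3 higher and 2 lower, where 14.6% of all genes tested did so (6.99% higher and 7.66% lower). Their median change was -0.17 on the log2 scale over the 10 genes and -0.04 over all genes. Without replicate 2 of 3 months, 3 of the 10 passed, and over all genes 2185 did, against 3190 with all arrays. Of the 10 genes, 6 did not overlap between 29 and 3 months, where 19.7% of all genes did not. The same held for 3 of the 10 at 24 against 3 months (14.8% of all genes), for 3 at 15 against 3 months (12.1%), for 3 at 29 against 24 months (7.04%) and for 0 at 24 against 15 months (9.99%).

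**Figure D1:**
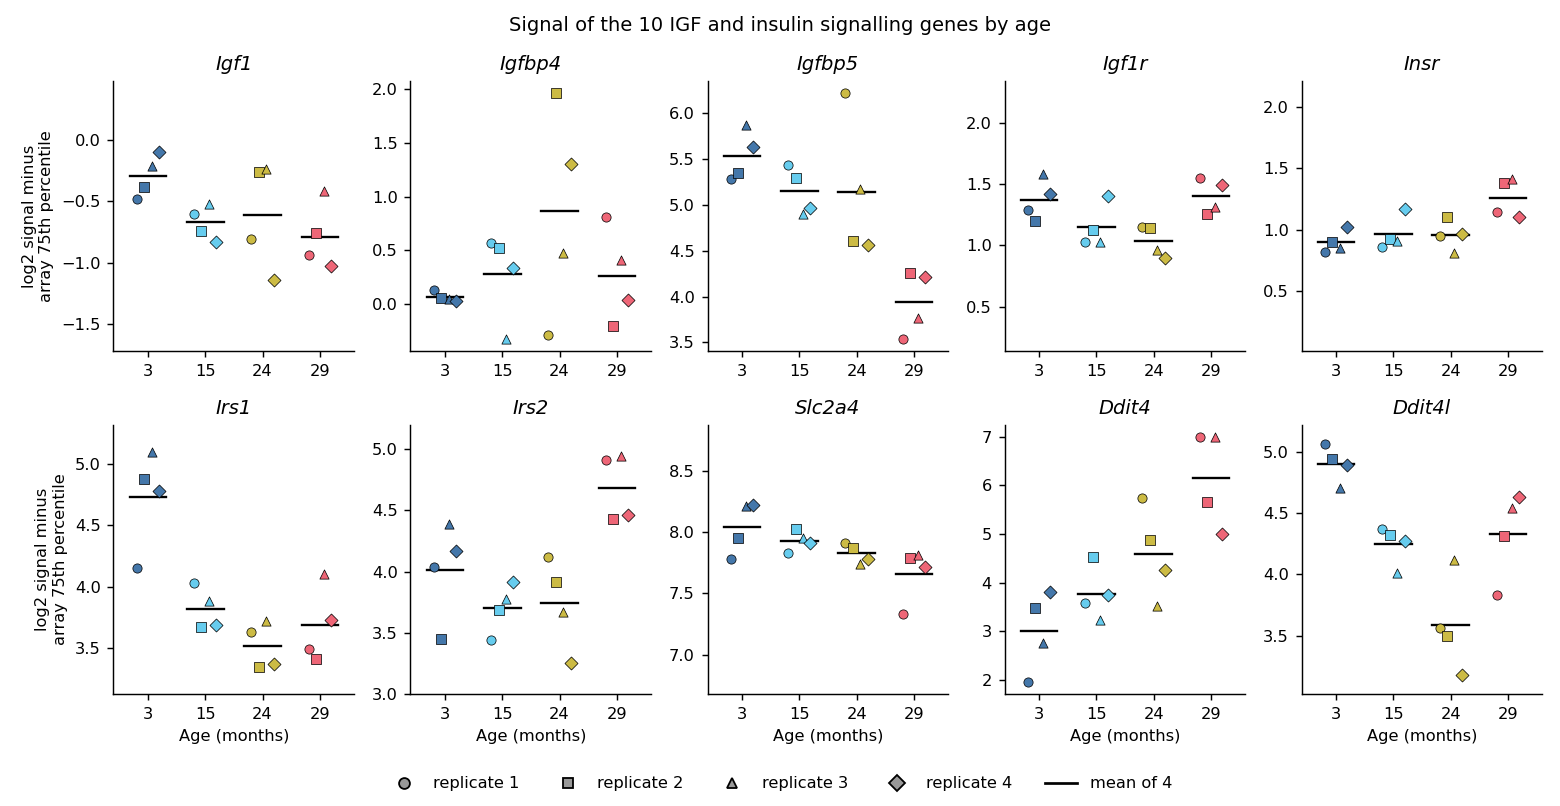
Level of each of the 10 genes on each array, as log2 signal minus the array's 75th percentile (vertical axis), at 3, 15, 24 and 29 months (horizontal axis). Each point is 1 array, its shape gives the replicate number and the black line is the mean of the 4 arrays. Ddit4 is highest and Igfbp5 lowest at 29 months, with no overlap with 3 months. Irs1 is below its 3 month level at the 3 later ages, and Ddit4l is lowest at 24 months. The vertical axis differs between genes.

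Igf1, the ligand, circulates from the liver and is also made by muscle and its connective tissue cells. Its brightest probe (A_55_P2031636) read -0.48, -0.38, -0.21 and -0.10 at 3 months, and -0.60, -0.74, -0.52 and -0.83 at 15 months, where a level of 0 is the array's 75th percentile. It read -0.81, -0.26, -0.24 and -1.14 at 24 months, and -0.94, -0.76, -0.42 and -1.03 at 29 months. All 15 month values lay below all 3 month values, while the spread at 24 months covered both. The change was -0.49 (SE 0.19, limma adjusted p = 0.0988) at 29 against 3 months and -0.38 (SE 0.19, adjusted p = 0.517) at 15 against 3 months, so Igf1 did not pass by this probe. With the 4 arrays of lowest weight left out, the change at 29 against 3 months was -0.60 and passed (adjusted p = 0.0354).

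The 4 Igf1 probes disagreed on the older arrays. Probe A_55_P2085974 read -2.10, -1.18, -3.81 and -0.80 at 29 months, against -0.31, 0.20, 0.04 and -0.23 at 3 months. Its change of -1.90 at 29 against 3 months (SE 0.58) passed when each of the 28435 kept probes was tested singly (adjusted p = 0.0417), although it was well above background on only 3 of the 4 arrays of 29 months. The other 2 probes changed by -0.62 (adjusted p = 0.264) and -0.64 (adjusted p = 0.239). All 3 of these probes were lowest on replicate 2 of 24 months (-2.41, -2.41 and -3.67) and replicate 3 of 29 months (-1.96, -2.16 and -3.81). Those 2 arrays had the lowest fibroblast marker scores of the series, -1.88 and -1.48. They also had the lowest endothelial scores (-1.03 and -0.59) and macrophage scores (-1.22 and -0.58), so low scores there were not particular to fibroblast markers. The summed endothelial level on replicate 2 of 24 months was nevertheless the highest of the series, 6.33. The part of this in the Igf1 values was not tested. The brightest probe was not low there, at -0.26 and -0.42. With the mean over its probes in place of the brightest, Igf1 passed (-0.91, adjusted p = 0.0496).

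**Figure D2:**
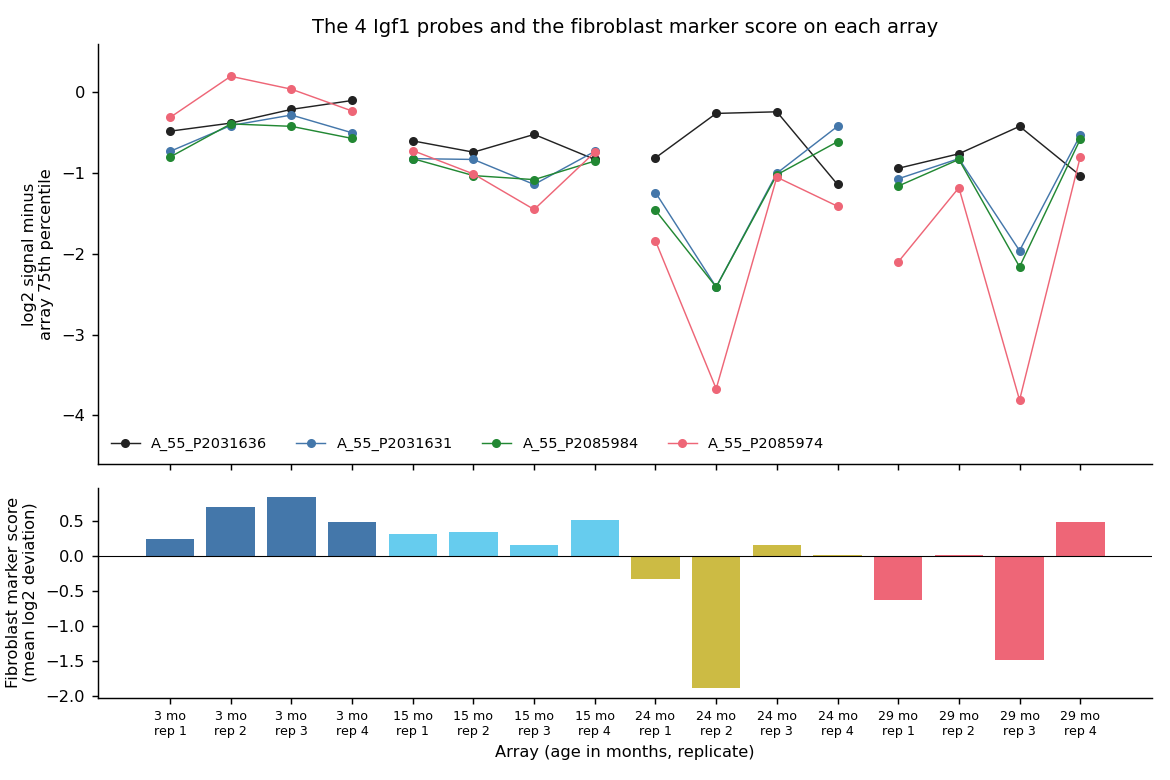
Upper panel: level of the 4 Igf1 probes on each of the 16 arrays (log2 signal minus the array's 75th percentile); lines join the values of 1 probe within an age and replicates have no order. Lower panel: fibroblast marker score of the same arrays (mean log2 deviation over 10 genes), as bars from 0. The 3 coloured probes drop on replicate 2 of 24 months and replicate 3 of 29 months, where the fibroblast score is -1.88 and -1.48, and the black probe does not. Endothelial and macrophage scores, not drawn, were also lowest on those arrays.

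Igfbp5, a binding protein that is abundant in skeletal muscle and its matrix, was lower at 29 months than at any younger age. It read 5.28, 5.35, 5.87 and 5.63 at 3 months, 5.44, 5.30, 4.90 and 4.97 at 15 months, 6.22, 4.61, 5.17 and 4.56 at 24 months, and 3.54, 4.26, 3.77 and 4.21 at 29 months. The highest 29 month array was below the lowest array of every other age. It fell by 1.59 (SE 0.30, adjusted p = 0.00308) at 29 against 3 months, and the call held in all 29 alternatives run (highest adjusted p 0.0118). The change within the second slide, 29 against 24 months, was -1.19 (SE 0.30) and did not pass (adjusted p = 0.0604), although it did with quantile normalization, normexp, the deposited values, the filter on all arrays or the trended robust variance model (adjusted p of 0.0297 to 0.0491). Without the 4 arrays of lowest weight Igfbp5 changed by -1.30 at 29 against 3 months. The fall accompanied lower tendon, endothelial, and smooth muscle and pericyte marker scores, and fibroblast scores that were lower on some arrays. The summed tendon and endothelial levels overlapped between 29 and 3 months. The part of these markers in the fall was not tested.

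Igfbp4, a binding protein that mostly inhibits IGF and is cleaved by the protease PAPP-A, passed in no comparison. It read -0.29, 1.96, 0.48 and 1.30 at 24 months, against 0.13, 0.06, 0.05 and 0.03 at 3 months. The values 1.96 and 1.30 were on replicates 2 and 4 of 24 months, both among the 4 arrays of lowest weight. The SD over 4 arrays stood at 0.04, 0.41, 0.98 and 0.44 at 3, 15, 24 and 29 months, and the difference in spread was not tested. The mean change was 0.79 (SE 0.37, adjusted p = 0.237) at 24 against 3 months and 0.20 (SE 0.37, adjusted p = 0.781) at 29 against 3 months, and the second turned to -0.15 without the 4 arrays of lowest weight.

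Of the receptor genes, Insr passed at 29 against 3 months and Igf1r passed in no comparison. Insr, the insulin receptor, read 1.14, 1.38, 1.41 and 1.10 at 29 months, against 0.82, 0.90, 0.85 and 1.02 at 3 months, with no overlap. By this probe, its brightest, it averaged 0.96 ± 0.14 and 0.96 ± 0.12 at 15 and 24 months (SD, n = 4 each), and the 3 younger ages overlapped. Insr rose by 0.36 (SE 0.10, adjusted p = 0.0299) at 29 against 3 months. Its 2 dimmer probes changed by 0.31 and 0.27 and did not pass (adjusted p = 0.216 and 0.180). The first of them (A_55_P2173927) had means of -0.88, -0.53, -0.94 and -0.57 at 3, 15, 24 and 29 months. By that probe 15 months stood about as high as 29 months, and all 24 month arrays lay below all 15 month arrays. The other (A_55_P2172566) had means of -1.41, -1.35, -1.40 and -1.14. The call was lost on leaving out any one of replicates 1, 2 or 3 of 3 months or replicates 2 or 3 of 29 months (changes of 0.31 to 0.36, adjusted p 0.0663 to 0.0786), and without the 4 arrays of lowest weight (0.34, adjusted p = 0.0714). It was also lost with the array median as the scaling value (adjusted p = 0.175), no filter, the mean over probes, or only the ages compared.

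Igf1r, the IGF1 receptor, had means of 1.37 ± 0.16, 1.15 ± 0.17, 1.04 ± 0.12 and 1.40 ± 0.14 at 3, 15, 24 and 29 months (SD, n = 4 each). The ages of higher mean, 3 and 29 months, shared an array row, as did 15 and 24 months. The 29 month arrays (1.26 to 1.55) lay above those of 24 months (0.90 to 1.15), and the 24 month arrays lay below those of 3 months (1.20 to 1.58). Neither change passed: 0.37 (SE 0.12, adjusted p = 0.128) at 29 against 24 months and -0.33 (SE 0.12, adjusted p = 0.114) at 24 against 3 months. At 29 against 3 months the difference was 0.03 (SE 0.12, adjusted p = 0.886), and its sign turned without replicate 2 of 3 months (-0.02) and without replicate 1 of 29 months (-0.01).

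Irs1, an adaptor that links both receptors to PI3-kinase in muscle, was lower at every age after 3 months. It read 4.15, 4.88, 5.10 and 4.78 at 3 months, 4.03, 3.67, 3.88 and 3.69 at 15 months, 3.63, 3.34, 3.72 and 3.37 at 24 months, and 3.49, 3.41, 4.10 and 3.73 at 29 months. Every later array lay below every 3 month array, replicate 3 of 29 months (4.10) and replicate 1 of 3 months (4.15) coming closest, while the 3 later ages overlapped one another. It fell by 1.04 (SE 0.19, adjusted p = 0.00256) at 29 against 3 months and by 1.21 (SE 0.19, adjusted p = 0.00325) at 24 against 3 months, and both calls held in all 29 alternatives run (adjusted p up to 0.0259 and 0.0303). Its second probe (A_52_P171212) fell by 0.65 (SE 0.18, adjusted p = 0.0292) and 0.84 (SE 0.18, adjusted p = 0.0195) in the same comparisons. By that probe 29 and 3 months overlapped: replicate 3 of 29 months read 0.01 and replicate 1 of 3 months read -0.29.

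Within the first slide, Irs1 fell by 0.91 (SE 0.19, adjusted p = 0.0371) at 15 against 3 months, a 1.88-fold difference. It was the only one of the 10 genes to pass there, where 0.978% of all genes did and 0.285% were lower. This call was lost on leaving out any one of replicates 2, 3 or 4 of 3 months, any 15 month array or replicate 4 of 29 months (adjusted p up to 0.129), and with median scaling, no filter or the mean over probes (adjusted p up to 0.164). The second Irs1 probe overlapped between 15 and 3 months and did not pass there (-0.56, adjusted p = 0.202). Between 29 and 24 months the Irs1 difference was 0.17 (SE 0.19, adjusted p = 0.744). The difference between the later and the earlier step within slides was 1.08 (SE 0.27) and did not pass (adjusted p = 0.0898), but did with normexp, with the deposited values and without replicate 1 of 3 months (adjusted p down to 0.0278).

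Irs2, the adaptor that is known in liver as a target of the FOXO factors, overlapped between the ages up to 24 months and was higher at 29 months. It read 4.04, 3.45, 4.39 and 4.17 at 3 months, 3.44, 3.69, 3.78 and 3.92 at 15 months, 4.12, 3.92, 3.67 and 3.26 at 24 months, and 4.91, 4.43, 4.94 and 4.46 at 29 months. The lowest 29 month array lay above the highest array of the younger ages, replicate 3 of 3 months at 4.39, and the younger ages overlapped. Irs2 rose by 0.94 (SE 0.22, adjusted p = 0.0392) at 29 against 24 months within 1 slide, the only one of the 10 genes to pass there, where 1.91% of all genes did and 1.47% were higher. It rose by 0.67 (SE 0.22, adjusted p = 0.0488) at 29 against 3 months. Both calls were close to the threshold. The first was lost without any one of 10 arrays: replicates 1 and 4 of 3 months, 2 and 3 of 15 months, 2, 3 and 4 of 24 months, and 1, 3 and 4 of 29 months (adjusted p up to 0.113). The second was lost without any one of 11 arrays: replicates 1, 2 and 4 of 3 months, all of 15 months, 2 and 3 of 24 months, and 1 and 3 of 29 months (adjusted p up to 0.149). The first was also lost with quantile normalization, no filter, only the ages compared or array weights. The second was lost in 20 of the 29 alternatives run, among them median scaling, quantile normalization, normexp, the deposited values, no filter, only the ages compared and array weights (adjusted p of 0.0553 to 0.098). Dropping the 4 least weighted arrays gave changes of 0.55 and 0.43 (adjusted p = 0.364 and 0.226).

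The promoters of the 2 adaptor genes are shown because the genes moved apart. The sequences are those of RefSeq on GRCm38.p6, from 250 bases before to 50 after the transcription start, read 5′ to 3′ along the gene. Capitals mark matches, on either strand, to the insulin response letters CAAAACA, to ACGTG, the core of the hypoxia response element, to the CCAAT box and to the GC box GGGCGG.
Irs1, chr1:82291390-82291689, minus strand: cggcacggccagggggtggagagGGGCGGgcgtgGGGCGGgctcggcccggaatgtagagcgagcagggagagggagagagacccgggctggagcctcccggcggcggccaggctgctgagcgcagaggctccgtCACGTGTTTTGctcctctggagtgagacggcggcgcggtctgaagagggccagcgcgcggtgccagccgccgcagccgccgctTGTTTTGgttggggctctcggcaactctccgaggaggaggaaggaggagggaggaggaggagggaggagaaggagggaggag
Irs2, chr8:11008880-11009179, minus strand: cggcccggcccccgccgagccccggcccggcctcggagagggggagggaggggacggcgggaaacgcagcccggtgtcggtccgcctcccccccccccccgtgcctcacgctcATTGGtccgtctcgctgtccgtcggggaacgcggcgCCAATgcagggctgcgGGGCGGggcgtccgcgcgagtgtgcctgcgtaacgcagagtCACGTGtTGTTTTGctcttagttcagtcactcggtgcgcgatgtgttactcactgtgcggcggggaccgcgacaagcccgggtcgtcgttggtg
Both promoters held CAAAACA, which 6.28% of 32851 promoters of this length did: Irs1 at -111 to -105 and -32 to -26, Irs2 at -37 to -31, counted from the start base as 0. Both also held ACGTG on each strand as the palindrome CACGTG, at -115 to -110 in Irs1 and -44 to -39 in Irs2. ACGTG on either strand was in 19.6% of promoters, and the share with the palindrome was not counted. CAAAACA and ACGTG together occurred in 1.07% of promoters. In Irs1 the palindrome and the first CAAAACA match overlap by 2 bases. The letters GTAAACA of the forkhead site were in neither window and in 3.65% of promoters. These matches are letters in a window, and no binding was measured.

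Slc2a4, which encodes GLUT4, the transporter that insulin and contraction bring to the fibre surface, had a lower mean at each later age. Its means were 8.04 ± 0.21, 7.93 ± 0.08, 7.82 ± 0.08 and 7.66 ± 0.23 at 3, 15, 24 and 29 months (SD, n = 4 each), and each age overlapped the next. The 29 month arrays read 7.33, 7.79, 7.81 and 7.71, against 7.78, 7.95, 8.21 and 8.22 at 3 months. The change of -0.38 (SE 0.12) fell just outside the threshold (adjusted p = 0.0507). It passed without replicate 1 of 3 months or replicate 3 of 29 months (adjusted p down to 0.0277), and under 6 other settings, among them quantile normalization.

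Ddit4 encodes REDD1, which glucocorticoids, low oxygen and energy stress induce in muscle and which activates the TSC complex against mTORC1. It read 1.95, 3.47, 2.76 and 3.81 at 3 months, 3.59, 4.52, 3.22 and 3.75 at 15 months, 5.74, 4.88, 3.52 and 4.25 at 24 months, and 7.0, 5.65, 6.99 and 5.0 at 29 months. Neighbouring ages overlapped, but every 29 month array lay above every 3 month and 15 month array. Ddit4 rose by 3.16 (SE 0.54, adjusted p = 0.00159) at 29 against 3 months, the largest change of the 10 genes, and the call held in all 29 alternatives run (adjusted p up to 0.0288). The 2 highest values were on replicates 1 and 3 of 29 months, both among the arrays of low weight. Dropping the 4 least weighted arrays left a change of 2.32. The steps within slides, 0.77 (SE 0.54, adjusted p = 0.732) at 15 against 3 months and 1.56 (SE 0.54, adjusted p = 0.174) at 29 against 24 months, did not pass. The change of 1.60 (SE 0.54) at 24 against 3 months did not pass either (adjusted p = 0.109).

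Ddit4l encodes REDD2, a relative of REDD1 that is enriched in skeletal muscle and also restrains mTORC1. It was lowest at 24 months and then higher. It read 5.06, 4.94, 4.70 and 4.89 at 3 months, 4.37, 4.32, 4.01 and 4.27 at 15 months, 3.56, 3.50, 4.12 and 3.18 at 24 months, and 3.83, 4.31, 4.54 and 4.63 at 29 months. All arrays of the 3 later ages lay below all 3 month arrays. Ddit4l fell by 1.30 (SE 0.19, adjusted p = 0.00233) at 24 against 3 months, a 2.47-fold difference that held in all 29 alternatives run (adjusted p up to 0.0139). With Irs1 it was 1 of 2 of the 10 genes to pass there, both lower, where 4.66% of all genes passed and 2.49% were lower. The change of -0.57 (SE 0.19) at 29 against 3 months did not pass (adjusted p = 0.0639). It passed without any one of replicates 3 or 4 of 24 months or 4 of 29 months (adjusted p down to 0.0345), and with quantile normalization, normexp background correction or the deposited values (adjusted p down to 0.0279).

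The 2 steps that lie within a slide ran in opposite directions for Ddit4l. The earlier step went from array row 2 to row 1 and the later one from row 1 to row 2. Age and array row therefore cannot be told apart in the difference of the steps. Ddit4l changed by -0.65 (SE 0.19, adjusted p = 0.153) at 15 against 3 months and by 0.74 (SE 0.19, adjusted p = 0.0708) at 29 against 24 months. The first passed with only the ages compared, with array weights and without the 4 arrays of lowest weight (adjusted p down to 0.0178). The second passed with normexp, with the deposited values and without replicate 3 of 24 months or 1 of 29 months (adjusted p down to 0.0216). The later step minus the earlier one was 1.39 (SE 0.27, adjusted p = 0.0362), the only such difference among the 10 genes to pass, where 0.67% of all genes did and 0.317% were positive. This call was lost without any one of 13 arrays, all except replicate 3 of 24 months and replicates 1 and 2 of 29 months (adjusted p up to 0.0868). Median scaling and no filter also ended it (adjusted p up to 0.0887), and it held without the 4 arrays of lowest weight together (1.28, adjusted p = 0.0485).

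The promoters of the 2 REDD genes are shown beside their unlike courses, again from RefSeq on GRCm38.p6 and over the same 300 bases. Capitals mark ACGTG, the CCAAT box, the GC box GGGCGG and the TATA box letters TATAAA on either strand.
Ddit4, chr10:59951721-59952020, minus strand: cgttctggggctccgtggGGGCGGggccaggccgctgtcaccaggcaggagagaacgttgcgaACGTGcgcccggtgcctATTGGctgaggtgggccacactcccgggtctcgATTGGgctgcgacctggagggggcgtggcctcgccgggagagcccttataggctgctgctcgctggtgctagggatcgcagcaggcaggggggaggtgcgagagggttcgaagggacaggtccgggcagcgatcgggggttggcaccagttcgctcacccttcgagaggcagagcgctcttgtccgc
Ddit4l, chr3:137623422-137623721, plus strand: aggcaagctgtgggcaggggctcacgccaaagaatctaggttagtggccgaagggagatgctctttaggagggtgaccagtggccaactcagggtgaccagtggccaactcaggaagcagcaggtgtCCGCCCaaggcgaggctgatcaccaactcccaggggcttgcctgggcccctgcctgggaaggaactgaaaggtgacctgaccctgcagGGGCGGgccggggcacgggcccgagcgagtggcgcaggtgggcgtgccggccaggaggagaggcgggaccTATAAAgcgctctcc
Ddit4 held ACGTG at -187 to -183 and 2 CCAAT boxes, which occurred in 37.4% of promoters. Ddit4l held neither in this window. Both held GGGCGG, as 35.7% of promoters did, and Ddit4l had TATAAA after its start, at 35 to 40. The glucocorticoid half-site letters AGAACA were in neither window, as in none of the 8 promoters found for the 10 genes, against 19% of all promoters. Whether so few promoters differ from that share was not tested. The 8 had a median GC content of 70.2%, against 52.7% over all promoters. Insr and Slc2a4 had no entry.

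**Figure D3:**
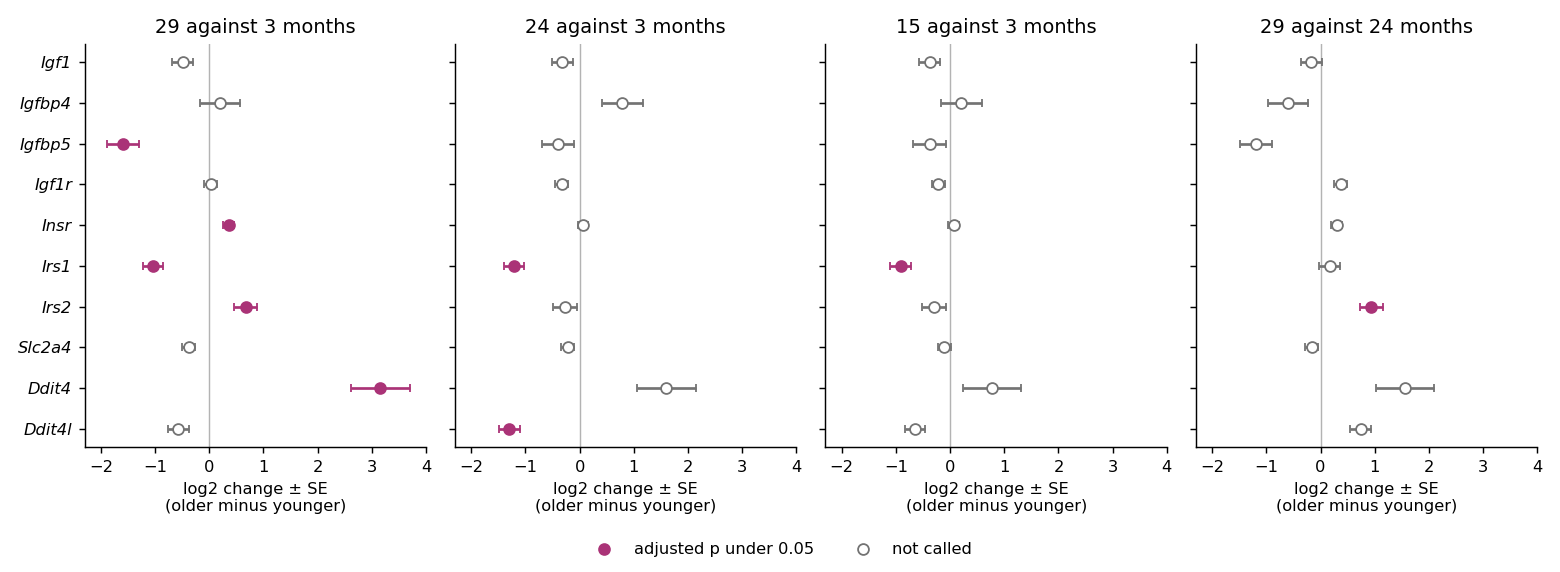
Change of each of the 10 genes (rows) in 4 comparisons between ages (panels), as log2 change, older minus younger, with its standard error as the bar. Filled points passed at an adjusted p under 0.05: 5 genes at 29 against 3 months, Irs1 and Ddit4l at 24 against 3 months, Irs1 at 15 against 3 months and Irs2 at 29 against 24 months. The first 3 panels share the 3 month arrays.

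The comparisons of 15, 24 and 29 months against 3 months share the 3 month arrays. None of the 10 genes passed at 24 against 15 months, where 0.0964% of all genes did. The smallest p of the 10 there was that of Ddit4l (-0.65, SE 0.19, adjusted p = 0.179). Ddit4l ranked 536 by p among the 21777 genes. A line in age fitted within slides, which uses 15 against 3 and 29 against 24 months together, also called none of the 10, where 0.634% of all genes passed. At an unadjusted p under 0.05 it held 4 of them: Irs1 (-0.72 per 12 months), Ddit4 (1.21), Igfbp5 (-0.75) and Igf1 (-0.38). Igfbp5 ranked 2305 by p among the 21777 genes on this line, so at least that many genes met that cut. Without the 4 arrays of lowest weight this line called Irs1 (-0.86, adjusted p = 0.0265).

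Related genes of the pathway were compared by the difference of 2 genes within each array, which needs no scaling between arrays. The level of this difference depends on the probes, so only its change is read. Ddit4 minus Ddit4l averaged 1.83 ± 1.24 at 29 months and -1.90 ± 0.88 at 3 months (SD, n = 4 each), a change of 3.73. Irs2 minus Irs1 averaged 1.0 ± 0.31 at 29 months and -0.72 ± 0.54 at 3 months, a change of 1.72. Igfbp5 minus Igfbp4 averaged 3.68 ± 0.78 at 29 months and 5.46 ± 0.30 at 3 months, a change of -1.78. In each of these pairs the ages did not overlap. Since single genes of the pairs already separated the ages and were chosen with that known, these values are a description and no p is given. Igf1r minus Insr averaged 0.15 ± 0.29 at 29 months and 0.47 ± 0.18 at 3 months, a change of -0.33 with overlap. Without replicates 1 and 3 of 29 months the change of Igfbp5 minus Igfbp4 was -1.15.

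**Figure D4:**
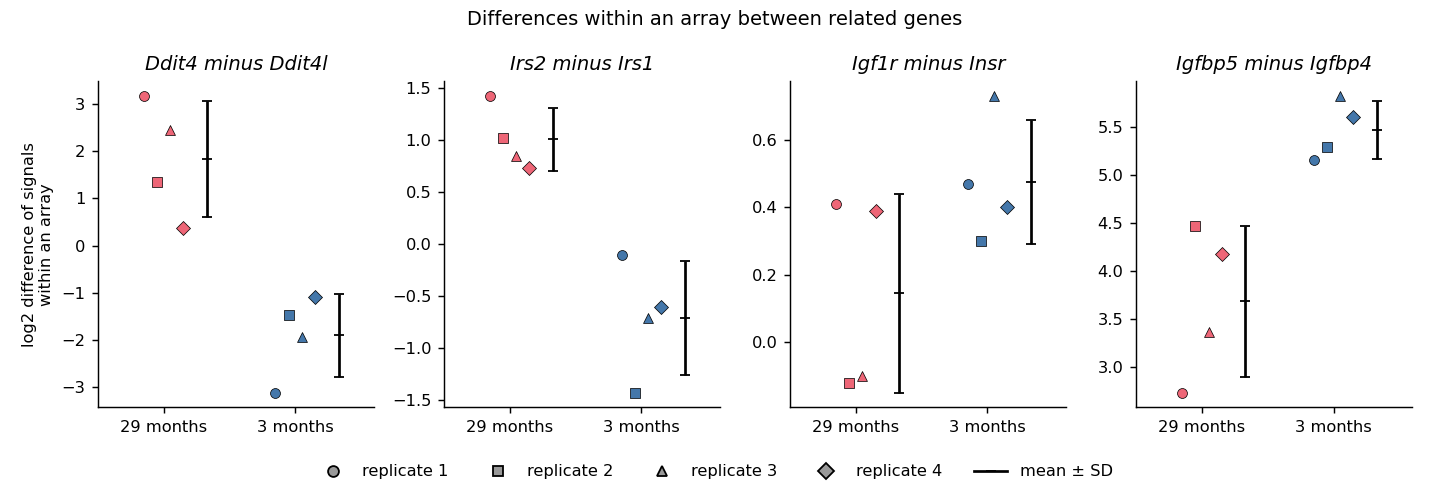
Difference in log2 signal between 2 related genes within each array, at 29 months (left) and 3 months (right). Points are arrays, shaped by replicate number, and bars give the mean ± SD of 4 arrays. The ages do not overlap for Ddit4 minus Ddit4l, Irs2 minus Irs1 and Igfbp5 minus Igfbp4, and they overlap for Igf1r minus Insr.

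Several other genes had a course across the arrays much like that of the 5 genes that passed at 29 against 3 months. Over the 16 arrays and 12948 genes compared, the Pearson correlation with Ddit4 was highest for Il6ra (0.94), Rps9 (0.92) and Arrdc3 (0.91). For Irs2 it was highest for Zfand5 (0.92), Akirin2 (0.92) and Hnrnpu (0.91), and for Irs1 for Mrtfb (0.92), Hdac10 (0.92) and Fem1b (0.90). Igfbp5 was nearest to Foxo6, Slc26a6 and Abcd2 (0.92 each), and Insr to Bnip3, Chkb and Emsy (0.91 each). Among the 10 genes, Ddit4 correlated with Insr at 0.76 and with Igfbp5 at -0.63, Irs1 with Ddit4l at 0.74, and Irs2 with Igf1r at 0.76. The arrays share age groups and slides, so these values describe likeness over this series and are given with no test.

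Of 82 further genes of the pathway, 75 were tested, and 11 passed at 29 against 3 months, 7 higher and 4 lower, where 14.6% of all genes did: the list passed at about the background share. Their median change was 0.00, against -0.04 over all genes. Without the 4 arrays of lowest weight 20 of them passed, and the count over all genes was then 3752, against 3190 with all arrays. By role, the counts below stand against the same 14.6%, and none was tested for a difference from it. In glucose uptake 4 of 13 passed: Rab13, a small GTPase of GLUT4 traffic in muscle cells, rose by 1.19 (SE 0.20, adjusted p = 0.00135). Tbc1d1, a GTPase-activating protein that AKT and AMPK phosphorylate, rose by 0.83 (SE 0.15, adjusted p = 0.00222). Lnpep, the aminopeptidase carried in GLUT4 vesicles, rose by 0.64 and Stxbp3, a syntaxin-binding protein, fell by 0.49. In the TSC and mTOR group 2 of 18 passed, both higher. Sesn1, an inhibitor of mTORC1, rose by 1.06 (SE 0.29, adjusted p = 0.0242), and Eif4ebp1, the translation repressor that mTORC1 phosphorylates, rose by 0.86 (SE 0.22, adjusted p = 0.0164). Sesn1 read 4.06, 4.06, 5.62 and 3.87 at 29 months, against 3.39, 3.16, 3.38 and 3.44 at 3 months, with no overlap and replicate 3 of 29 months far above the others. Without that array the Sesn1 change was 0.65 (adjusted p = 0.0105). Eif4ebp1 read 5.40, 5.37, 6.46 and 5.36 at 29 months, against 4.75, 4.78, 4.70 and 4.90 at 3 months, highest on the same array.

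**Figure D5:**
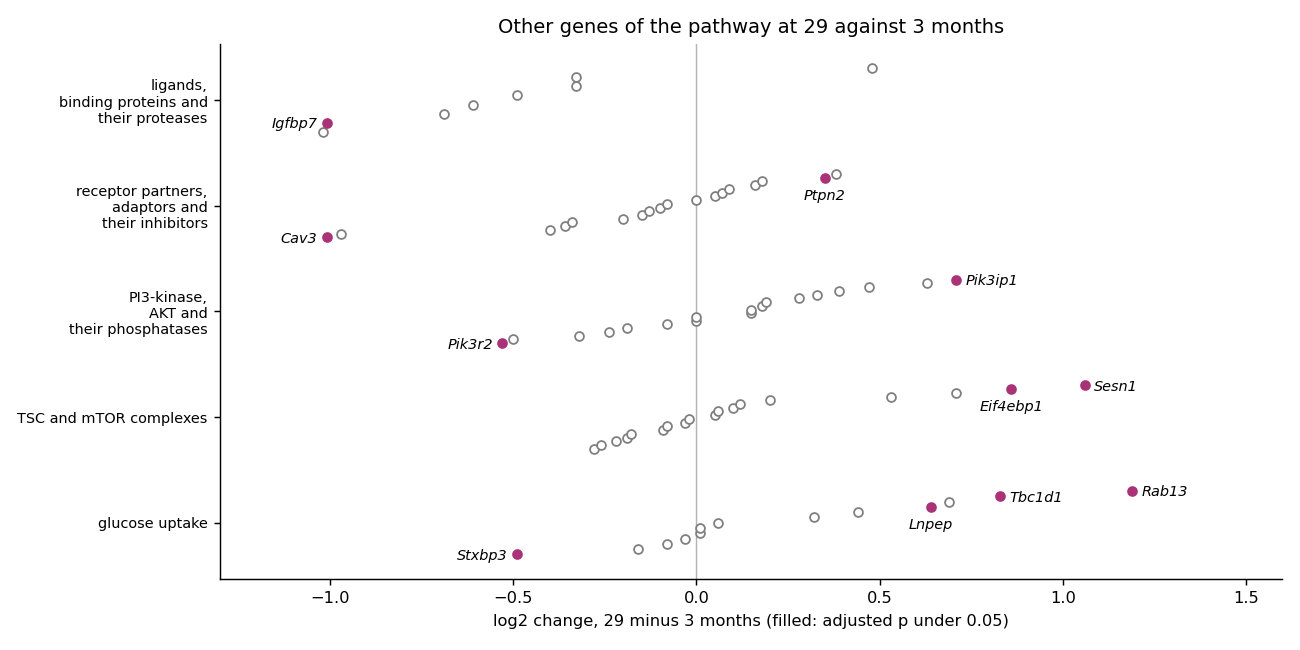
Change of 75 further genes of the pathway at 29 against 3 months, by role, as log2 change (29 minus 3 months, horizontal axis). Each point is a gene, sorted by change within its role; filled and named points passed at an adjusted p under 0.05. The 11 that passed are 7 higher and 4 lower, and the points of most roles lie on both sides of 0.

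Among receptor partners and adaptors 2 of 18 passed. Cav3, the caveolin of the fibre membrane, fell by 1.01 (SE 0.13, adjusted p = 0.000241), and Ptpn2, a tyrosine phosphatase that acts on the insulin receptor, rose by 0.35 (SE 0.10, adjusted p = 0.0254). Cav3 read 4.17, 4.71, 4.52 and 4.69 at 29 months, against 5.40, 5.65, 5.43 and 5.66 at 3 months, and already stood lower at 15 months (4.78 to 5.08). In the PI3-kinase and AKT group 2 of 18 passed: Pik3ip1, an inhibitor of PI3-kinase, rose by 0.71, while the regulatory subunit gene Pik3r2 fell by 0.53. Of 8 ligand, binding protein and protease genes Igfbp7 passed, which fell by 1.01 (SE 0.28, adjusted p = 0.0257). Igfbp7 was lowest on replicate 2 of 24 months (-3.06), the array with the lowest fibroblast, endothelial and macrophage scores. Its fall accompanied lower scores of endothelial and of smooth muscle and pericyte markers, whose part in it was not tested. The summed endothelial level overlapped between 29 and 3 months. The median change of those 8 genes was -0.55, against -0.04 over all genes.

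In the other comparisons few of these genes passed. At 15 against 3 months 3 of the 75 did, where 0.978% of all genes passed: Cav3 (-0.63), Tbc1d1 (0.73) and Rab13 (0.91). These genes also passed the line fitted within slides (-0.58, 0.76 and 0.87 per 12 months), where 0.634% of all genes did. At 29 against 24 months 3 passed, against 1.91% of all genes, and all were higher: Pik3ip1 (0.96), Sesn1 (1.43) and Eif4ebp1 (1.05). At 24 against 3 months 3 passed, against 4.66% of all genes, with 1 higher (Rab13) and 2 lower (Igfals and Cav3). At 24 against 15 months 0 passed, against 0.0964% of all genes. The later step minus the earlier one passed for Eif4ebp1 alone (1.48, adjusted p = 0.0434), where 0.67% of all genes passed. That difference cannot tell age from array row.

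Most of these calls were lost on leaving out 1 array or another. That of Eif4ebp1 for the difference of steps was lost without any one of 12 arrays, all except replicate 1 of 24 months and replicates 1, 2 and 3 of 29 months, and with median scaling or no filter on dim probes (adjusted p up to 0.102). At 29 against 24 months the calls were lost without replicates 2, 3 or 4 of 24 months or 3 or 4 of 29 months for Pik3ip1, without replicates 2, 3 or 4 of 24 months for Sesn1, and without replicates 3 or 4 of 24 months for Eif4ebp1 (adjusted p up to 0.0654, 0.0661 and 0.0711). These 3 calls were also lost with no filter, without the 4 arrays of lowest weight, and with only the ages compared (adjusted p of 0.205, 0.264 and 0.271). The 15 against 3 month calls were lost without any one of the 8 arrays of that slide for Cav3 and Rab13, and without any one of them but replicate 3 of 3 months for Tbc1d1 (adjusted p up to 0.129, 0.131 and 0.110). That of Rab13 was also lost without replicates 3 or 4 of 24 months, and all 3 with median scaling or no filter. On the line within slides the call was lost without any one of 12 arrays for Cav3 (the 8 of the first slide, replicates 1, 2 and 3 of 24 months and 3 of 29 months). For Rab13 it was lost without any one of 9 (the 8 and replicate 3 of 24 months), and for Tbc1d1 without replicates 2 or 4 of 3 months or 2 or 3 of 15 months. Median scaling ended the calls of Cav3, Rab13 and Tbc1d1 there (adjusted p of 0.392, 0.141 and 0.1). At 24 against 3 months Igfals changed by -0.75 (adjusted p = 0.0496), and the call was lost without any one of 12 arrays, all except replicate 3 of 3 months and replicates 1, 2 and 4 of 29 months. With normexp background correction the Igfals change was -0.11 (adjusted p = 0.451). Rab13 lost its call there without replicates 1 or 3 of 3 months or 1 of 24 months (adjusted p up to 0.0598), and with median scaling, quantile normalization or the deposited values (adjusted p up to 0.171). With normexp Rab13 changed by 0.72 at 29 against 3 months and by 0.45 at 24 against 3 months, and Igfbp7 by -0.53 at 29 against 3 months, each still past the threshold. At 29 against 3 months the calls of Igfbp7, Ptpn2 and Pik3ip1 were each lost without any one of 5 arrays (adjusted p up to 0.0685, 0.0817 and 0.0687). That of Sesn1 was lost without replicate 2 of 3 months (adjusted p = 0.066). The calls of Cav3, Pik3r2, Eif4ebp1, Tbc1d1, Rab13, Lnpep and Stxbp3 there survived leaving out any single array, but those of Pik3r2 and Lnpep were lost with median scaling (adjusted p = 0.0716 and 0.0742) and that of Eif4ebp1 with only the ages compared (adjusted p = 0.0609).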

How the data were processed

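Single-colour Cy3 intensity files of 16 arrays, 4 at each age, were read from the deposited scanner output. Per the file headers, the intensity values (processed signal) were background-subtracted by Feature Extraction 10.7.1.1. From them log2 signal minus each array's 75th percentile was computed. Control probes and 93 probes with outlier-flagged spots were left out. A probe was kept if all 4 arrays of at least 1 age called it well above background, and a gene was read from its kept probe of highest mean. Probe transcripts were named through RefSeq symbols (GRCm38.p6, names only), which gave 1 symbol to 26540 of 55588 probes.

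All genes were fitted together with limma 3.58.1 in R 4.3.3 (lmFit, eBayes) and p-values adjusted by Benjamini-Hochberg over 21777 genes. A call is an adjusted p under 0.05. The fits were age means, a linear age term with slide as the block, and the difference of the 2 within-slide steps. Pairs of related genes are described by their difference within arrays; the planned exact permutation p is not printed, since single genes of the pairs fixed it. The procedure was tested on simulated data. The precision is limited by 4 arrays per age.

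The named genes are the 10 members, the called genes of an 82-gene pathway list (all called genes in a role at 29 against 3 months, and in other comparisons where 3 or fewer were called), and the 3 genes with symbols most correlated with each called member. The pathway genes named at 24 against 3 months were added after their values were seen, and 1 further gene of the list is not reported here. Members, lists and pairs were chosen with earlier results of these data known. Marker scores covered 12 cell type lists.

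The alternatives were 2 other scalings, normexp on median spot signals, the deposited log2 value table, 2 filters, 2 rules for probes, fits of only the ages compared, a replicate block, another variance model, array weights, and leaving out each array. Leaving out the 4 arrays of lowest weight was chosen after seeing the data. The deposited log2 values follow the feature number (r of 0.985 to 0.993 with the scanner values) and not the probe name beside them (r of -0.005 to 0.0183). Their column medians were 4.55 to 4.69, and the authors' normalization and centring are not given in the sources used here. Correlations of deviations between same-numbered arrays ran from -0.47 to 0.30, so the numbers do not pair the samples.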

Additional observations from a re-analysis of the deposited data

Results flagged for a closer look

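For Ddit4l the change within the second slide (29 against 24 months) minus the change within the first (15 against 3 months) was 1.39 on the log2 scale (adjusted p = 0.0362). The gene was flagged because the 2 changes differed by the test of that difference. For Eif4ebp1, a gene of the wider pathway, the same difference was 1.48 (adjusted p = 0.0434). The 2 changes ran between the array rows in opposite directions, so neither difference can tell age from array row. The Ddit4l call was lost without any one of 13 arrays and the Eif4ebp1 call without any one of 12, and both with median scaling, no filter or the replicate block (adjusted p up to 0.0887 and 0.102). The level of Eif4ebp1 on replicate 3 of 29 months was 6.46, against 5.36 to 5.40 for the other 29 month replicates.

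Of 64 groups of 4 arrays tested for a single outlying array (the 16 probes at each age), 0 were flagged, where chance flags about 1 in 20, or 3.2 groups.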

How the results depend on the processing

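The changes of Irs1, Igfbp5 and Ddit4 at 29 against 3 months, and of Irs1 and Ddit4l at 24 against 3 months, passed in each of the 29 alternatives run. Those comparisons lie across slides, and none of the alternatives separates age from slide. For Igfbp5, Ddit4 and Ddit4l, with 1 probe each, the mean over probes left the values unchanged. The counts of the 10 genes called elsewhere moved with the settings. At 29 against 3 months (5 called), 3 were called with the array median as scaling value, with no filter on dim probes, or with only the ages compared. At 15 against 3 months (1 called), 0 were called with median scaling, no filter or the mean over probes, and 2 with only the ages compared, with array weights, or without the 4 arrays of lowest weight. At 29 against 24 months (1 called), 3 were called with normexp or the deposited log2 values, 2 with the filter on all arrays or the trended robust variance model, and 0 with no filter, only the ages compared, array weights, or without the 4 arrays. The line in age (0 called) gave 1 with array weights or without the 4 arrays, and 5 with no slide term. The difference of steps (1 called) gave 4 with normexp, 3 with the deposited values, and 0 with median scaling or no filter. The wider pathway at 29 against 3 months (11 called) gave 6 with median scaling, 7 with no filter or only the ages compared, and 20 without the 4 arrays. Igfbp5 minus Igfbp4 changed by -1.15 without replicates 1 and 3 of 29 months, against -1.78 with all arrays. Where arrays or ages were left out the samples were also fewer, and the causes of these movements were not tested.

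With the replicate number as a block, 4 of the 10 genes passed at 29 against 3 months, 0 at 29 against 24 months and 0 for the difference of steps. Same-numbered arrays did not pair. Each array was set against the 4 arrays of each other age, and in 12 of these 48 cases it correlated best with its own number. Leaving out 1 array at a time gave 3 to 6 calls at 29 against 3 months, 2 in every case at 24 against 3 months, 0 to 1 at 15 against 3 months, 0 to 1 at 29 against 24 months, 0 to 1 for the difference of steps, and 0 for the line and at 24 against 15 months. The wider pathway gave 8 to 14 at 29 against 3 months. Over all genes the same fits gave 2185 to 3544 at 29 against 3 months, 453 to 1282 at 24 against 3 months and 86 to 279 at 15 against 3 months. They gave 153 to 562 at 29 against 24 months, 55 to 165 for the difference of steps, 52 to 202 for the line and 2 to 88 at 24 against 15 months. The change of Ddit4 minus Ddit4l ran from 3.28 to 4.22, of Irs2 minus Irs1 from 1.48 to 1.92, of Igfbp5 minus Igfbp4 from -2.04 to -1.47 and of Igf1r minus Insr from -0.42 to -0.24. Directions turned for Igf1r at 29 against 3 months without replicate 2 of 3 months (-0.02) or replicate 1 of 29 months (-0.01), and for Igfbp4 without the 4 arrays of lowest weight (-0.15).

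Counts over all genes moved too. At 29 against 3 months 3190 passed, 1537 with median scaling, 2191 with no filter and 1983 with only the ages compared. At 15 against 3 months 213 passed, 89 with median scaling, 106 with no filter, 721 with only the ages compared, 1113 with array weights and 802 without the 4 arrays. At 29 against 24 months 417 passed, 667 with normexp, 1106 with the deposited values, 153 with no filter, 9 with only the ages compared, 229 with array weights and 52 without the 4 arrays. The line gave 138, 928 with array weights, 585 without the 4 arrays and 2954 with no slide term. The difference of steps gave 146, 410 with normexp, 992 with the deposited values, 55 with median scaling and 50 with no filter. Median scaling moved the median change of all genes to -0.15 (from the -0.02 of the 75th percentile) at 24 against 3 months and to 0.10 (from -0.03) at 29 against 24 months. Higher calls were 76.7% of all calls at 29 against 24 months, 90.8% with median scaling and 60.5% with the deposited values. They were 71.4%, 55.6% and 47.3% at 24 against 15 months under the same settings, and 70.9% at 15 against 3 months, where the deposited values gave 59.0%. Signal limited 1 Igf1 probe, which 1 of the 4 arrays of 29 months did not call well above background.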
